A study of Mus musculus with 8 samples.

Results

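The cadherins and protocadherins of dorsal root ganglion cells were followed across 20 clusters of cells. Members were all genes of the marker table whose symbol is Cdh or Pcdh followed by a digit, or starts with Pcdha, Pcdhb or Pcdhg. They numbered 24 of the 9229 genes listed, 15 Cdh and 9 Pcdh genes, with 237 of the 56694 listed pairs of gene and cluster. The clustered protocadherins (Pcdha, Pcdhb and Pcdhg) gave 0 members and are not analysed here. The cells came from C57BL/6 mice 21 to 30 days old, with the ganglia of 4 mice pooled per sample and no genetic change or drug named in the labels. Living cells were labelled with an antibody to proteasome subunit β5 and sorted into those positive and those negative for the neuronal membrane proteasome, a proteasome exposed on the neuronal surface. The labels give 4 samples of each population, whose descriptions share 1 library name within a population and differ only in a lane number, and the table does not divide its clusters by population. Every value below therefore compares a cluster with all other cells of both populations, and no replicate could be compared.

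Cadherins are calcium-dependent adhesion proteins of the cell surface that bind mostly to the same cadherin on a neighbouring cell. Classical cadherins of type I and type II hold on to the actin skeleton through catenins, and neurons use different combinations of them to sort into groups and to choose synaptic partners. The δ-protocadherins adhere weakly, do not bind catenins in the classical way, and many of them engage actin regulators such as the WAVE complex. In a ganglion the same family also joins endothelial cells, satellite glia and Schwann cells.

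By their names the clusters fell into 10 of named neurons, with 40.8% of all cells, 3 called Low.UMI for few transcript molecules per cell, with 28.6%, and 7 called Unknown, with 30.7%. These shares were derived from the deposited fractions. Among the Unknown clusters, 8 of 8 endothelial markers were higher in Unknown.1, 8 of 8 satellite glia markers in Unknown.2, 7 of 7 listed mural markers in Unknown.3, and 8 of 8 Schwann cell markers in Unknown.4. Fibroblast markers were higher, 8 of 8, in both Unknown.5 and Unknown.6, and macrophage markers, 8 of 8, in Unknown.488p. A gene was called higher or lower at an adjusted p under 0.05 in the authors' deposited table, which treats cells as units, so the calls serve as a filter and not as evidence of a difference between animals. A member not listed in a cluster was within the authors' limits of fold change, p or detection, and was not read as absent.

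Every one of the 24 members was higher in at least 1 cluster, as listing in a marker table favours, and the median was 2 clusters for members and 2 for all genes. The largest log2 fold change over clusters had a median of 1.26 for members and 0.58 for all genes, and it reached 1 in 14 of 24 members (58.3%) against 26.2% of all genes. Members were listed in a median of 12.5 clusters and all genes in 4.0, so a member's largest value was usually taken over more clusters. All genes also included 1302 that were higher in no cluster. These 2 sets are therefore not alike for this measure. In the named neuron clusters 47 of 240 possible pairs were higher (19.6%, against 10.9% of pairs over all genes) and 44 were lower (18.3%, against 6.72%). In the Low.UMI clusters 1 of 72 pairs was higher (1.39%, against 10.9%) and 29 were lower (40.3%, against 20.6%). In the Unknown clusters 24 of 168 pairs were higher (14.3%, against 10.2%) and 63 lower (37.5%, against 27.1%).

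**Figure D1:**
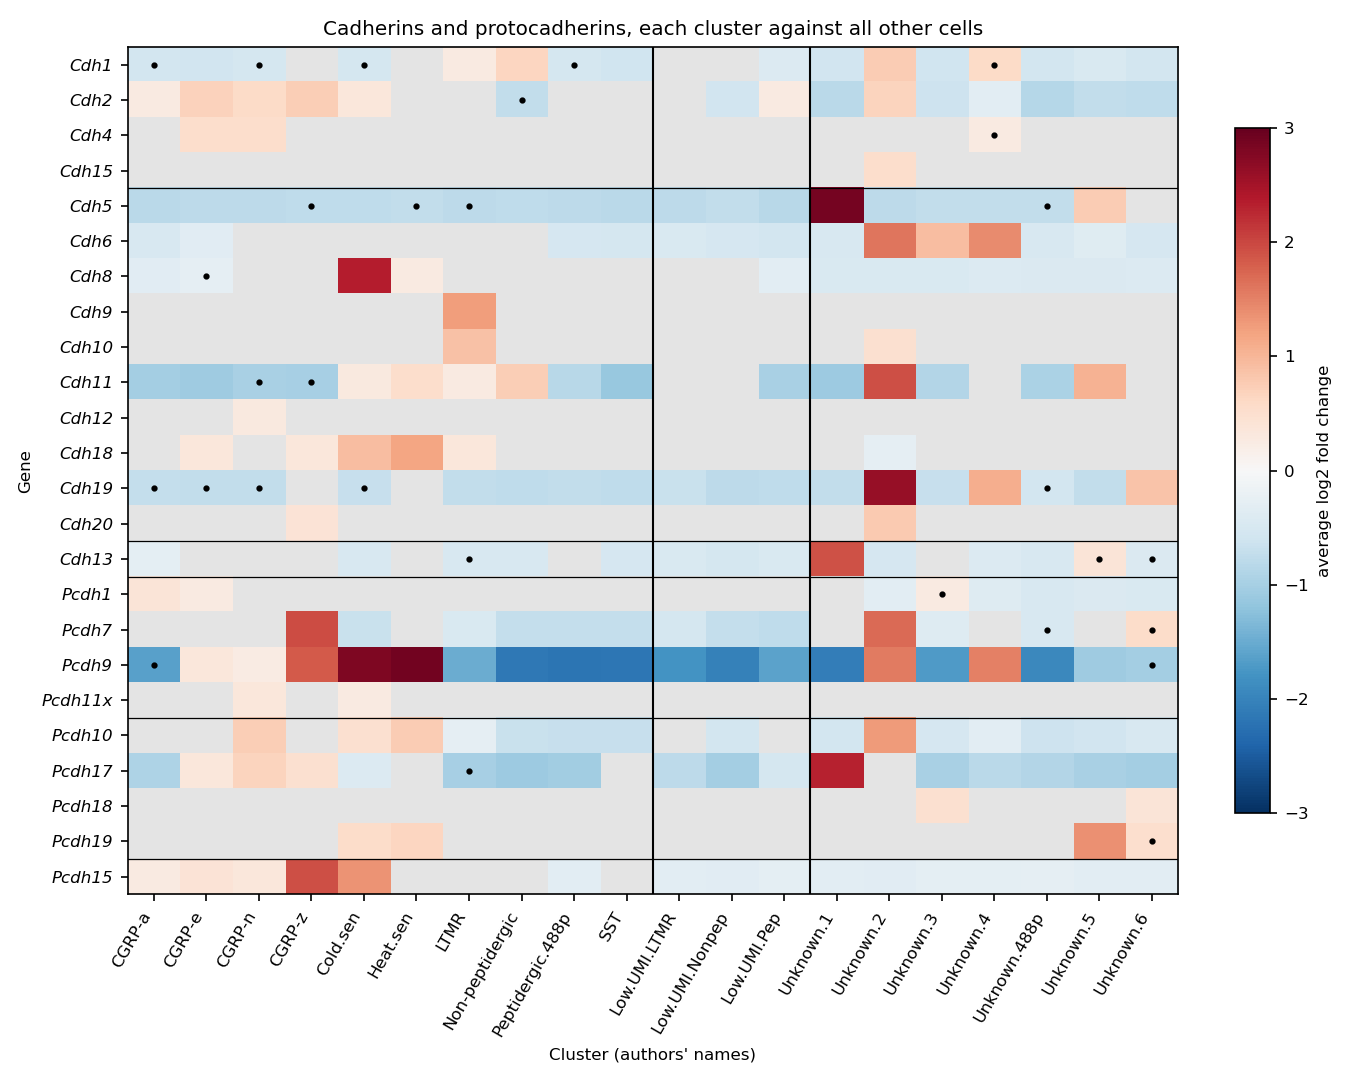
Average log2 fold change of each cluster against all other cells in the authors' deposited table, with the 24 genes in rows grouped by subfamily and the 20 clusters in columns grouped as named neurons, Low.UMI and Unknown. Grey marks pairs that are not listed and a dot marks listed pairs not past the filter; Pcdh9 spans the widest range, from -2.19 in Peptidergic.488p to 2.90 in Heat.sen.

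The members were long genes. In RefSeq's annotation of GRCm38.p6 their median length was 175 kb, against 30.5 kb for the 9140 table genes with a length (99.0%), and 16 of 24 members reached 100 kb, as did 20.8% of those table genes. Length moved with the calls over the whole table. Of all pairs of genes of at least 100 kb, 20.9% were higher in named neuron clusters, 3.4% in Low.UMI clusters and 13.0% in Unknown clusters. For genes under 100 kb these shares were 8.18%, 12.9% and 9.4%. The members' 19.6%, 1.39% and 14.3% lay close to the long genes. Of the pairs of long genes, 11.1% were lower in named neuron clusters, 47.2% in Low.UMI clusters and 30.0% in Unknown clusters, where members had 18.3%, 40.3% and 37.5%. Most shares given below for subfamilies, single clusters and related genes are set beside all genes and not beside long genes. The part of gene length in the calls was not tested.

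**Figure D2:**
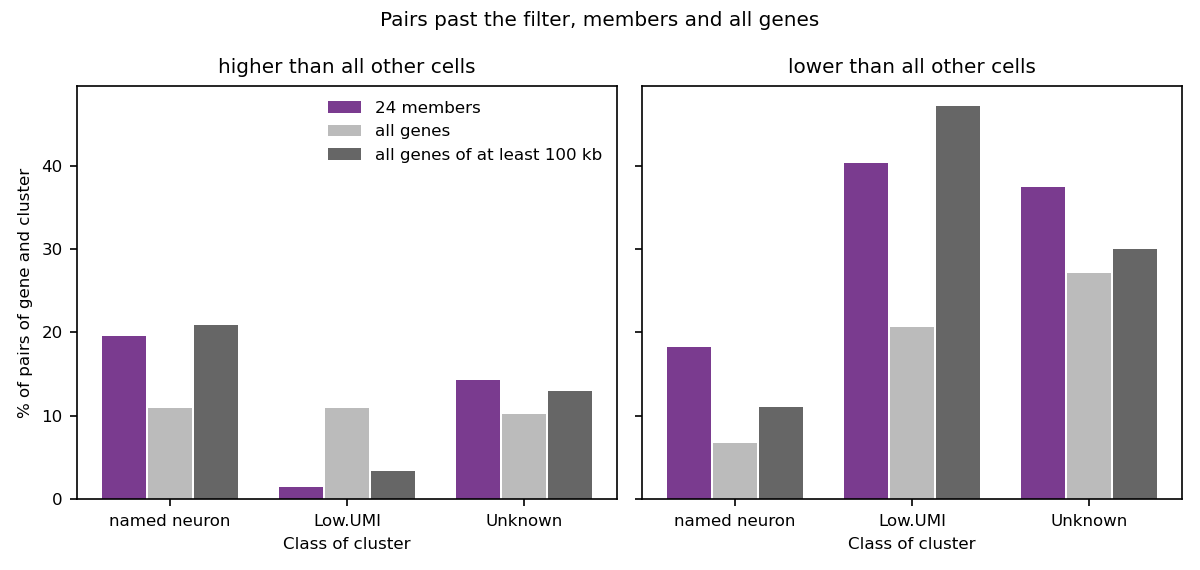
Percent of all possible pairs of gene and cluster called higher (left) or lower (right), by class of cluster, for the 24 members, all 9229 genes of the table and the table genes of at least 100 kb. Members and long genes had similar shares of higher pairs, 19.6% and 20.9% in named neuron clusters and 1.39% and 3.4% in Low.UMI clusters.

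Across single clusters, Unknown.2 had 11 members higher (45.8%, against 13.0% of all genes), Cold.sen 9 (37.5%, against 11.0%), CGRP-n 8 (33.3%, against 9.61%), CGRP-e 7 (29.2%, against 9.77%), CGRP-z 7 (29.2%, against 11.3%) and Heat.sen 6 (25.0%, against 12.6%). LTMR had 5 (20.8%, against 12.5%). Counts near the background were found in CGRP-a with 3 (12.5%, against 12.5%), Non-peptidergic with 2 (8.33%, against 9.86%), Unknown.3 with 2 (8.33%, against 8.05%), Unknown.6 with 2 (8.33%, against 7.39%) and Unknown.5 with 3 (12.5%, against 9.67%). Unknown.4 had 3 (12.5%, against 5.21%) and Unknown.1 had 3 (12.5%, against 18.0%). Low.UMI.Pep had 1 (4.17%, against 10.8%). No member passed the filter as higher in SST (12.5% of all genes), Peptidergic.488p (7.05%), Low.UMI.LTMR (10.9%), Low.UMI.Nonpep (10.9%) or Unknown.488p (9.91%).

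**Figure D3:**
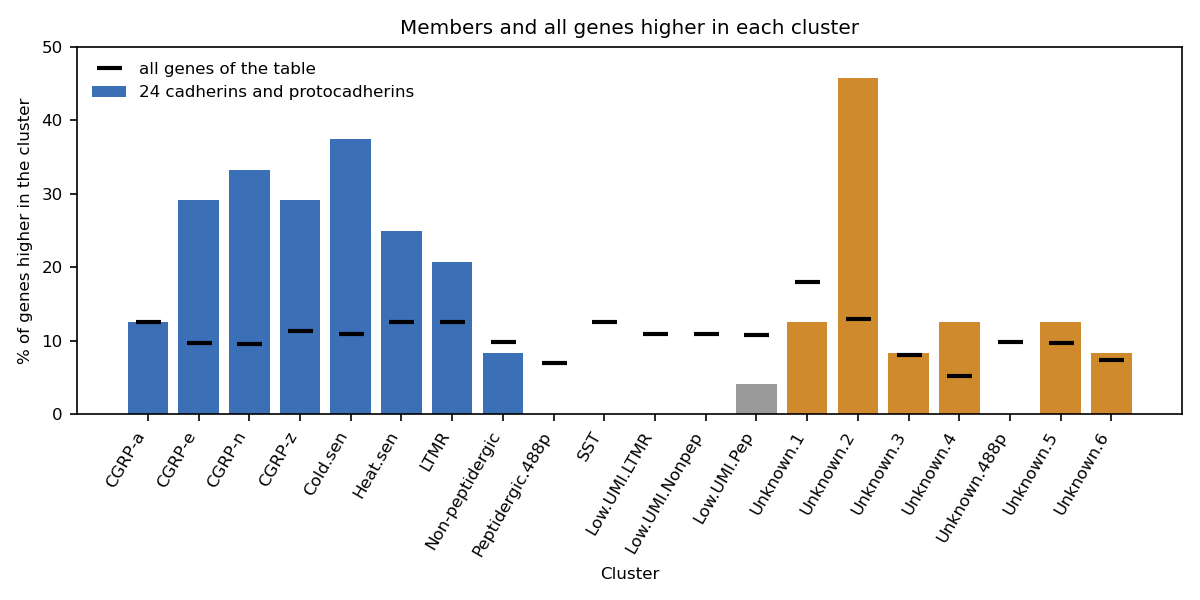
Percent of the 24 members (bars, coloured by class of cluster: blue for named neurons, grey for Low.UMI, orange for Unknown) and percent of all 9229 genes (black ticks) called higher in each cluster. Unknown.2 (45.8%) and Cold.sen (37.5%) have the tallest bars, and 5 clusters have none.

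Type I classical cadherins, which form strong adherens junctions, had 4 members. They were higher in 9 of 40 pairs with named neuron clusters (22.5%, against 10.9% over all genes) and lower in 2 (5.0%, against 6.72%). Cdh2, N-cadherin, the main type I cadherin of neurons, was found in 42.7% of all cells. In the authors' deposited table it was detected in 94.7% of CGRP-a, 98.9% of CGRP-e, 99.0% of CGRP-n, 97.2% of CGRP-z and 92.2% of Cold.sen cells. Its log2 fold changes there were 0.28, 0.69, 0.57, 0.73 and 0.34, all past the filter. In the authors' deposited table Cdh2 was higher in Unknown.2 too (0.66, in 47.6% of cells) but lower in the other 6 Unknown clusters, where 2.1 to 9.1% of cells had it. The authors' deposited table gave it in 51.9% of Non-peptidergic cells at -0.74, short of the filter. Its largest log2 fold changes were those of CGRP-z and CGRP-e.

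Cdh1, E-cadherin, the adhesion protein of epithelia, had a different set of clusters. The authors' deposited table gave it in 98.5% of Non-peptidergic cells (log2 fold change 0.65), 98.4% of LTMR cells (0.27) and 48.6% of Unknown.2 cells (0.77). In SST it was in 0.4% of cells (-0.60) and in CGRP-e in 8.6% (-0.58), both lower in the authors' deposited table. Of all cells with a Cdh1 transcript, 24.2% lay in Non-peptidergic, 20.4% in Unknown.2 and 18.1% in LTMR. Cdh1 and Cdh2 were both higher in Unknown.2, and in no named neuron cluster were both called higher. This does not show that neurons have only 1 of them. Cdh2 was in 51.9% of Non-peptidergic cells. It was not listed in LTMR, and the 5 clusters not listed for Cdh2 had it in a mean of 67.4% of cells.

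Cdh4, R-cadherin, was higher in CGRP-e (0.53, in 71.5% of cells against 14.4% of other cells) and CGRP-n (0.52, in 62.8% against 15.3%) in the authors' deposited table. Cdh15, M-cadherin, first known from muscle, was listed in Unknown.2 alone (0.53, in 20.0% of cells against 11.3%) in the authors' deposited table. Only 14.9% of the cells with a Cdh15 transcript lay in Unknown.2, and its mean share over the other 19 clusters, none of them listed, was 11.3%.

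**Figure D4:**
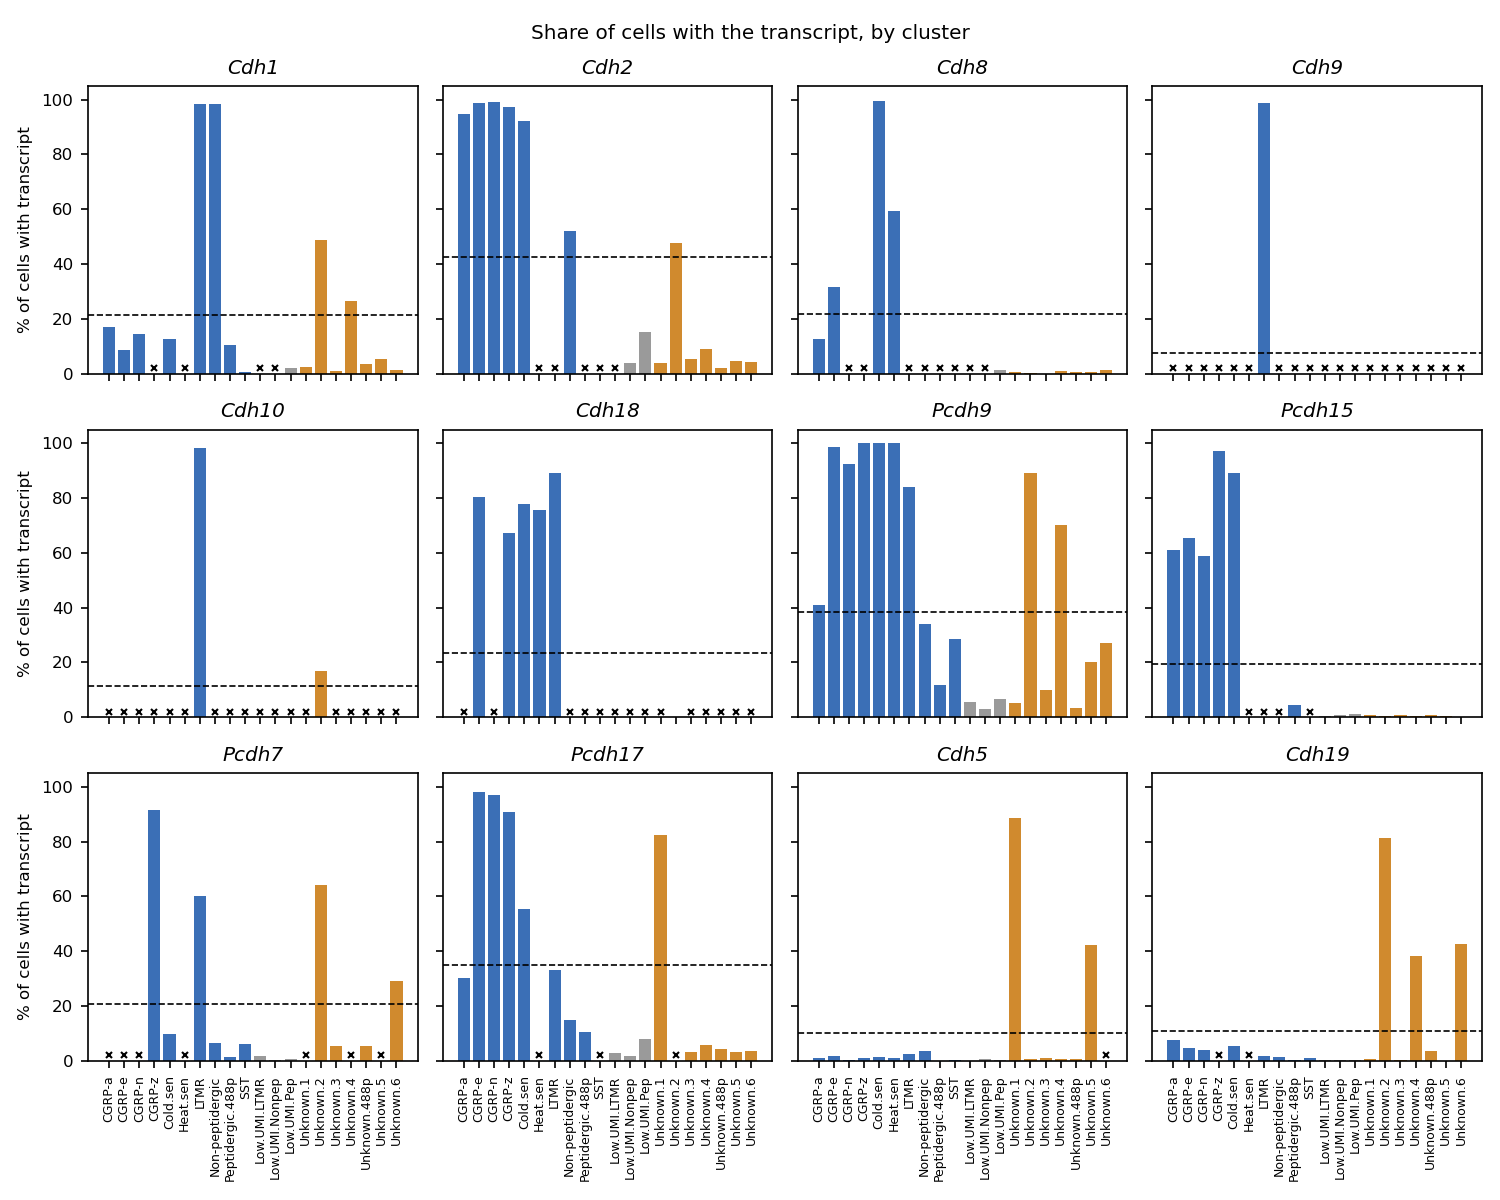
Percent of cells with a transcript of 12 members in each cluster where the gene is listed in the authors' deposited table (bars: blue named neurons, grey Low.UMI, orange Unknown), with crosses for clusters not listed and a dashed line at the share over all cells. Among listed clusters Cdh1 peaks in LTMR (98.4%) and Non-peptidergic (98.5%), and Cdh2 in the CGRP clusters. Cdh9 and Cdh10 peak in LTMR, and Cdh5 in Unknown.1 (88.6%). The 5 clusters not listed for Cdh2 have it in a mean of 67.4% of cells.

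Type II classical cadherins, which bind in a larger set of matching pairs and mark subsets of neurons, had 10 members. They were higher in 15 of 100 pairs with named neuron clusters (15.0%, against 10.9% over all genes) and lower in 20 (20.0%, against 6.72%). Genes of at least 100 kb were higher in 20.9% of such pairs and lower in 11.1%. Cdh9 and Cdh10 led LTMR, the cluster of low-threshold touch neurons in which 4 of 4 markers (Piezo2, Th, Tafa4, Slc17a8) were higher. The authors' deposited table gave Cdh9 in 98.7% of LTMR cells and 3.7% of other cells (1.26), with no other cluster listed. Cdh10 was in 98.1% of LTMR cells and 7.7% of other cells (0.87), and it was also higher in Unknown.2 (0.47, in 17.0% of cells) in the authors' deposited table. Of all cells with a transcript, LTMR held 52.2% for Cdh9 and 34.2% for Cdh10, while LTMR was 3.93% of all cells.

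Cdh9 and Cdh10 follow each other in the genome with no other protein-coding gene between them in RefSeq's annotation of GRCm38.p6. Their promoters are shown because both genes were higher in the same neuron cluster. Each is the RefSeq window from 250 bases before to 50 after a start, read along the gene, at chr15:16728665-16728964 (plus strand) for Cdh9 and chr15:18820079-18820378 (plus strand) for Cdh10. Neither start is the outermost one of its gene. Capitals mark any match, on either strand, to GGGCGG, known as a GC box, TATAAA, known as a TATA box, TGTGGT, known as a RUNX motif, TAATTA, known as a homeodomain motif, or CAGGTG, known as an E-box.
Cdh9: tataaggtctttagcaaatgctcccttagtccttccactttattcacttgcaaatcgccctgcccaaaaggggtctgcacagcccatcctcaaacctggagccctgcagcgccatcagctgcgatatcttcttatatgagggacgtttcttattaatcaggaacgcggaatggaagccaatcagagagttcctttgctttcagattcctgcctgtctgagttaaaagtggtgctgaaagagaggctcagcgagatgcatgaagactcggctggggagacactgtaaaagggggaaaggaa
Cdh10: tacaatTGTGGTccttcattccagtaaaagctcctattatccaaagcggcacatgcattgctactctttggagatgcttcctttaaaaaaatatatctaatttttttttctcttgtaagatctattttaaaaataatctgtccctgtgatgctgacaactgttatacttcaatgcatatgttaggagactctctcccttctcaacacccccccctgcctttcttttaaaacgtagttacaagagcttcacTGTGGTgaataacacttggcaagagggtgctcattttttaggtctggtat

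The Cdh9 window held none of these motifs and 8 CpG dinucleotides, and the Cdh10 window held 2 matches to TGTGGT and 2 CpG dinucleotides. Over 27025 RefSeq promoter windows, 16.9% had a match to TGTGGT, as had 4 of the 15 members with a window (Cdh10, Cdh15, Cdh20 and Pcdh15). A match of letters is a description and does not show that a factor binds.

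Cdh8, a type II cadherin of neuron subsets, led the type II cadherins in Cold.sen, whose Trpm8 neurons sense cooling. The authors' deposited table gave it in 99.7% of Cold.sen cells and 18.3% of other cells (2.35), and in 59.2% of Heat.sen cells (0.27). The authors' deposited table gave it in 31.6% of CGRP-e cells at -0.27, short of the filter. It was lower in CGRP-a (-0.34, 12.8% of cells) in the authors' deposited table and in all 7 Unknown clusters, where 0.0 to 1.4% of cells had it. Cold.sen held 20.0% of the cells with a Cdh8 transcript, and the 8 clusters not listed for it had it in a mean of 37.2% of cells.

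Cdh18 was higher in 5 named neuron clusters. In the authors' deposited table its log2 fold changes were 1.19 in Heat.sen, 0.92 in Cold.sen, 0.34 in LTMR, 0.33 in CGRP-e and 0.33 in CGRP-z. Between 67.3% (CGRP-z) and 89.3% (LTMR) of the cells of these clusters had it, while in Unknown.2 it was in 0.0% of cells (-0.26) in the authors' deposited table. Cdh12 was listed in CGRP-n alone, in 30.2% of its cells against 1.9% of other cells (0.30) in the authors' deposited table. Cdh20 was higher in Unknown.2 (0.78, in 25.2% of cells against 1.9%) and CGRP-z (0.40, in 40.2% against 3.5%) in the authors' deposited table.

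Cdh11, OB-cadherin, a type II cadherin of mesenchymal cells, crossed the classes. The authors' deposited table gave 1.93 in Unknown.2 (81.4% of cells), 1.04 in Unknown.5 (65.3%), 0.74 in Non-peptidergic (99.3%), 0.52 in Heat.sen (98.0%), 0.29 in Cold.sen (84.3%) and 0.27 in LTMR (100%). In SST (-1.13, 13.0% of cells), CGRP-e (-1.06, 18.3%) and CGRP-a (-1.02, 18.2%) it was lower in the authors' deposited table. Cdh11 and Cdh2 thus differed in the CGRP clusters: Cdh2 was higher in all 4, and Cdh11 was lower in CGRP-a and CGRP-e and not past the filter in CGRP-n (-0.97) and CGRP-z (-1.0).

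The δ1-protocadherins Pcdh1, Pcdh7, Pcdh9 and Pcdh11x were higher in 10 of 40 pairs with named neuron clusters (25.0%, against 10.9% over all genes) and lower in 9 (22.5%, against 6.72%). Pcdh9 was listed in all 20 clusters and had the widest range of any member, 5.09 on the log2 scale. It was higher in Heat.sen (2.90), Cold.sen (2.80), CGRP-z (1.85), CGRP-n (0.25) and CGRP-e (0.33) in the authors' deposited table. Between 92.6 and 100% of the cells of these 5 clusters had it. Unknown.2 (1.56, 89.2% of cells) and Unknown.4 (1.5, 70.3%) were higher as well in the authors' deposited table. Among named neurons it was lower in Peptidergic.488p (-2.19, 11.7%), SST (-2.16, 28.6%), Non-peptidergic (-2.15, 34.0%) and LTMR (-1.49, 84.1%) in the authors' deposited table. The authors' deposited table gave it in 40.8% of CGRP-a cells at -1.62, short of the filter. Its 3 largest values among named neurons thus lay in Heat.sen, Cold.sen and CGRP-z, where 100% of cells had it.

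The promoters of Cdh8 and Pcdh9, which had the largest fold changes of the family in Cold.sen, are shown with the same marks. They lie at chr8:99416422-99416721 (minus strand) and chr14:93890630-93890929 (minus strand) of GRCm38.p6 and are read along the gene from RefSeq. Neither start is the outermost one of its gene.
Cdh8: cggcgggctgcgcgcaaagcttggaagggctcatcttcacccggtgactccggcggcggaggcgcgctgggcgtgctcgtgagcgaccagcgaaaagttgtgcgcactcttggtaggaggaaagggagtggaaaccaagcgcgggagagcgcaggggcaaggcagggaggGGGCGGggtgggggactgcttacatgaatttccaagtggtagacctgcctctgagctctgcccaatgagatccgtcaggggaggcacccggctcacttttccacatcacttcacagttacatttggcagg
Pcdh9: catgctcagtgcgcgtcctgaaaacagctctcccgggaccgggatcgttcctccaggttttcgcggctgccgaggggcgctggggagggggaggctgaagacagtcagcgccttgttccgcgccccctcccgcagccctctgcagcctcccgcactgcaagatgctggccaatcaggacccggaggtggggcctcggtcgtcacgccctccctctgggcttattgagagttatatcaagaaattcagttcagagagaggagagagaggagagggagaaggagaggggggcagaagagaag

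The Cdh8 window held 21 CpG dinucleotides and 1 GC box, and the Pcdh9 window 18 CpG dinucleotides and none of the motifs. The median over the 15 member windows was 12 CpG dinucleotides, against 7 over 27025 promoter windows. A GC box was present in 35.9% of all promoter windows and in 7 of the 15 member windows.

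Pcdh7 was higher in CGRP-z (1.96, in 91.6% of cells against 19.6% of other cells) and Unknown.2 (1.71, in 64.3% of cells) in the authors' deposited table. In LTMR it was in 60.2% of cells, but its log2 fold change was -0.45 in the authors' deposited table. Pcdh1 was higher in CGRP-a (0.39, 91.8% of cells) and CGRP-e (0.28, 95.3%) and lower in 5 Unknown clusters in the authors' deposited table. Pcdh11x, on the X chromosome, was higher in CGRP-n (0.35, in 50% of cells against 7.0%) and Cold.sen (0.26, in 36.0% against 7.3%) in the authors' deposited table.

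The δ2-protocadherins Pcdh10, Pcdh17, Pcdh18 and Pcdh19 were higher in 8 of 40 pairs with named neuron clusters (20.0%, against 10.9% over all genes) and lower in 8 (20.0%, against 6.72%). Pcdh10 was higher in Heat.sen (0.75, 88.8% of cells), CGRP-n (0.74, 98.0%), Cold.sen (0.48, 77.6%) and Unknown.2 (1.27, 66.3%) in the authors' deposited table. SST had it in 1.7% of cells (-0.70) and Peptidergic.488p in 1.3% (-0.68), both lower in the authors' deposited table. Pcdh17 was higher in CGRP-n (0.67, 97.0% of cells), CGRP-z (0.48, 90.7%) and CGRP-e (0.34, 98.3%) and lower in CGRP-a (-0.92, 30.1%) in the authors' deposited table. Pcdh17 thus divided CGRP-a from the other 3 CGRP clusters.

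Pcdh19, an X-linked gene mutated in an epilepsy of girls, was higher in Heat.sen (0.64, in 73.5% of cells) and Cold.sen (0.56, in 71.5% against 7.3% of other cells) in the authors' deposited table. Its largest log2 fold change was in the fibroblast-like Unknown.5 (1.38, in 43.2% of cells) in the authors' deposited table. Cold.sen held 30.9% of all cells with a Pcdh19 transcript. Pcdh18 was listed in no named neuron cluster. It was higher in Unknown.3 (0.48, 13.8% of cells) and Unknown.6 (0.38, 12.8%) in the authors' deposited table. The 18 clusters not listed for Pcdh18 held 77.3% of the cells with its transcript, in a mean of 2.6% of their cells.

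Pcdh15, whose protein forms the tip link of hair cells together with cadherin-23, was higher in 5 named neuron clusters. The authors' deposited table gave 1.93 in CGRP-z (97.2% of cells), 1.34 in Cold.sen (89.0%), 0.26 in CGRP-a (61.0%), 0.33 in CGRP-n (58.7%) and 0.41 in CGRP-e (65.4%). It was lower in Peptidergic.488p (-0.31, 4.3% of cells) in the authors' deposited table, and in every Low.UMI and Unknown cluster, with 0.0 to 1.0% of cells. The listed named neuron clusters held 78.4% of all cells with a Pcdh15 transcript. The 4 clusters not listed for Pcdh15, all of them named neurons, held a further 19.5%.

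Each cluster was compared with all other cells, so any 2 clusters share most of their comparison cells. Set side by side in the authors' deposited table, Cold.sen and Heat.sen gave 2.80 and 2.90 for Pcdh9, 2.35 and 0.27 for Cdh8, 0.92 and 1.19 for Cdh18, 0.56 and 0.64 for Pcdh19, 0.48 and 0.75 for Pcdh10, and 0.29 and 0.52 for Cdh11. Among these 6 members, the ones called higher in both temperature-sensing clusters, Cdh8 had the widest gap. Pcdh15 (1.34), Cdh2 (0.34) and Pcdh11x (0.26) were higher in Cold.sen and not listed in Heat.sen, so their gap is not known.

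SST itch neurons and Peptidergic.488p neurons had no member past the filter as higher. Their lowest log2 fold changes after Pcdh9 were -1.13 for Cdh11 in SST and -1.04 for Pcdh17 in Peptidergic.488p in the authors' deposited table. Of 10 neuronal markers, 6 were higher and 1 lower in SST, and 5 were higher and 1 lower in Peptidergic.488p. Over all genes, 1154 were higher and 991 lower in SST, while 651 were higher and 1270 lower in Peptidergic.488p. Depth per cell is not given, and its part in these values was not tested.

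Cdh5, VE-cadherin, the cadherin of endothelial junctions, was in 88.6% of Unknown.1 cells and 2.2% of other cells in the authors' deposited table, with the second largest log2 fold change of the family (2.87). Unknown.1 held 79.9% of the cells with a Cdh5 transcript. Pcdh17 (2.30, in 82.5% of cells) and Cdh13, T-cadherin, which has a lipid anchor and no cytoplasmic tail (1.91, in 60.2%), were the other members higher in Unknown.1 in the authors' deposited table. Unknown.1 held 35.7% of the cells with a Cdh13 transcript. The 6 clusters not listed for Cdh13, most of them named neurons, held 39.6% and had it in a mean of 34.8% of cells. Cdh5 was also higher in Unknown.5 (0.75, in 42.1% of cells) in the authors' deposited table. Endothelial markers did not move with it there: none of the 4 listed of 8 was higher, 1 was lower, and Pecam1 was in 6.3% and Flt1 in 3.2% of Unknown.5 cells.

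Cdh19, a type II cadherin of the glial lineage of peripheral nerve, led the satellite-glia-like Unknown.2, where the authors' deposited table gave a log2 fold change of 2.62 and detection of 81.3% against 4.0% elsewhere. Unknown.2 held 66.5% of the cells with a Cdh19 transcript. Besides Cdh11, Pcdh7, Pcdh9, Pcdh10, Cdh1, Cdh2, Cdh10, Cdh15 and Cdh20, the list of 11 members higher there held Cdh6 (1.60, in 62.5% of cells) in the authors' deposited table. Of all cells with a Cdh6 transcript, Unknown.2 held 32.8%. The 6 clusters not listed for Cdh6, all of them named neurons, held 39.3% and had it in a mean of 33.7% of cells. All 10 neuronal markers were lower in Unknown.2, at log2 fold changes from -3.45 to -1.02, in 4.1 to 68.3% of its cells. Their part in the members' values was not tested.

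In the Schwann-cell-like Unknown.4 the higher members were Pcdh9, Cdh6 (1.41, in 32.4% of cells) and Cdh19 (1.08, in 38.4%) in the authors' deposited table. Of the satellite glia markers 4 of 8 were higher in Unknown.4 and 3 lower. Cdh19 was higher in the fibroblast-like Unknown.6 too (0.86, in 42.6% of cells) in the authors' deposited table. There, of the 8 satellite glia markers none was higher and 3 were lower, and of the 8 Schwann cell markers none was higher and 1 was lower. In the mural-like Unknown.3 Cdh6 was higher (0.92, in 38.8% of cells) in the authors' deposited table. The macrophage-like Unknown.488p had its lowest value in Pcdh9, which the authors' deposited table gave at -1.94 and in 3.4% of cells.

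**Figure D5:**
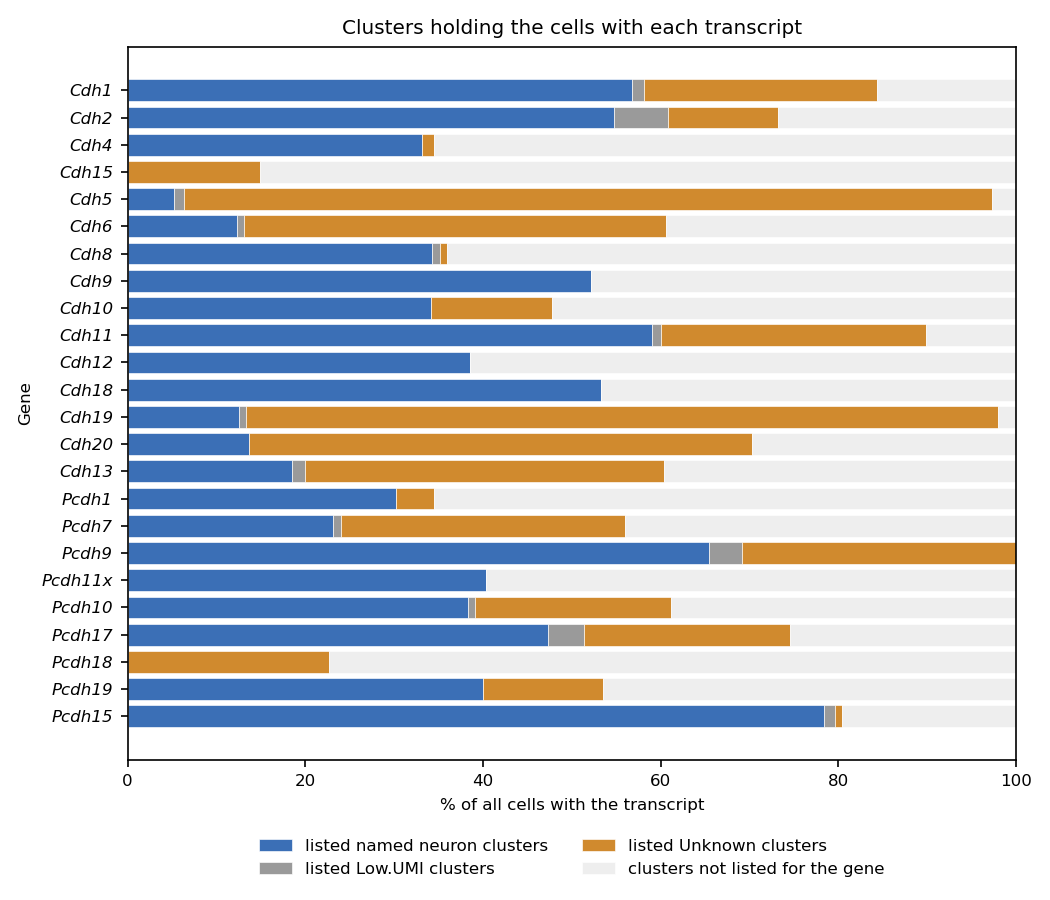
Percent of all cells with a transcript of each member that lie in the listed named neuron, Low.UMI and Unknown clusters, or in clusters where the gene is not listed, derived from the deposited fractions and the cluster sizes. Listed Unknown clusters hold 91.0% of cells with Cdh5 and 84.6% of cells with Cdh19. Listed named neuron clusters hold 78.4% of cells with Pcdh15, and the clusters not listed for it, all named neurons, 19.5%.

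Of possible Low.UMI pairs, 40.3% were lower for members, 20.6% over all genes and 47.2% for genes of at least 100 kb. Members had 30 listed pairs there, and 29 of them were lower. The exception was Cdh2 in Low.UMI.Pep, higher by fold change (0.27) although 15.1% of its cells had the transcript against 47.2% of other cells in the authors' deposited table. Over all genes, 95.3% of those higher in Low.UMI clusters were likewise in fewer cells. In named neuron clusters 6 of 44 lower pairs were in a larger share of cells than elsewhere (13.6%, against 46.5% over all genes). Among these were Pcdh9, Pcdh7 and Pcdh10 in LTMR, in 84.1%, 60.2% and 82.8% of cells in the authors' deposited table. In LTMR fold change and detection thus pointed opposite ways for these 3 genes, and depth per cell is not given.

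In RefSeq's annotation of GRCm38.p6, Cdh6, Cdh9, Cdh10 and Cdh12 follow each other with 0 protein-coding genes between neighbours, and their largest log2 fold changes were in Unknown.2, LTMR, LTMR and CGRP-n. Cdh8, Cdh11 and Cdh5 form another such run, with their largest values in Cold.sen, Unknown.2 and Unknown.1.

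Catenins tie classical cadherins to actin, and all 10 catenins and relatives in the list were in the table. Of their 100 possible pairs with named neuron clusters 17 were higher (17.0%, against 10.9% over all genes) and 18 lower (18.0%, against 6.72%). Of 70 with Unknown clusters 17 were higher (24.3%, against 10.2%) and 34 lower (48.6%, against 27.1%). Ctnna2, αN-catenin of neurons, was higher in 8 named neuron clusters in the authors' deposited table, from 0.76 in CGRP-n to 1.97 in Cold.sen, and lower in all Unknown clusters. Ctnna3, an α-catenin first described in heart and testis, was higher in Unknown.4 (3.88, in 84.0% of cells), Unknown.3 (2.56, in 85.5%) and Unknown.2 (0.76, in 48.4%) in the authors' deposited table. Ctnnd2, δ-catenin, was highest in Unknown.2 (2.43, in 85.3% of cells) and was higher in CGRP-a (0.99) in the authors' deposited table.

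Of the WAVE complex, which many δ-protocadherins engage, 9 of 9 genes were listed. For this complex 14 of 90 named neuron pairs were higher (15.6%, against 10.9% over all genes) and 10 lower (11.1%, against 6.72%). Cyfip2, one of its subunits, was higher in 6 named neuron clusters, up to 1.42 in CGRP-z, and lower in all 7 Unknown clusters in the authors' deposited table, while Cyfip1 was higher in Unknown.4 (1.28), Unknown.488p (0.94) and Unknown.2 (0.92). Of junction proteins 11 of 11 were listed, with 20 of 110 named neuron pairs higher (18.2%, against 10.9%) and 24 lower (21.8%, against 6.72%). Ptprk, a phosphatase that binds its own kind on the next cell, had its largest value in SST (2.28, in 93.9% of cells against 14.5%) and Ptprm in Unknown.1 (2.61) in the authors' deposited table. Tjp1, the tight junction scaffold ZO-1, was highest in Unknown.1 as well (2.25, in 83.2% of cells) in the authors' deposited table.

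Of 19 further genes of the cadherin superfamily 11 were listed, with 12 of 110 named neuron pairs higher (10.9%, as over all genes) and 9 lower (8.18%, against 6.72%). Fat3, a giant atypical cadherin, was higher in LTMR (1.76, in 100% of cells against 9.7%), Heat.sen (0.86) and Cold.sen (0.54) in the authors' deposited table. Clstn2, a calsyntenin, was higher in Unknown.5 (1.09), LTMR (0.94, found in 99.4% of its cells), Heat.sen (0.94) and Non-peptidergic (0.56) in the authors' deposited table. Ret, the receptor of GDNF family ligands, which carries cadherin-like domains, was higher in LTMR (1.13), Low.UMI.LTMR (1.70) and Non-peptidergic (0.80) in the authors' deposited table. In Low.UMI.LTMR, Ret was higher by fold change only, in 46.1% of cells against 47.1% of other cells. The sheddases and γ-secretase subunits that cut cadherins had 6 of 7 genes listed, with 0 of 60 named neuron pairs higher (against 10.9% over all genes) and 5 lower (8.33%, against 6.72%). Adam10, the main cadherin sheddase, was higher in Unknown.1 (0.88, in 57.0% of cells) and Unknown.2 (0.47) in the authors' deposited table. It was lower in LTMR, Non-peptidergic and SST, yet in 86.4%, 87.1% and 77.9% of their cells, against 44.6%, 44.0% and 44.3% of other cells. Adam17 was lower in LTMR (in 51.5% of cells against 28.8%) and in Peptidergic.488p (8.7% against 30.4%). The cohesin and chromatin genes known to regulate the protocadherin gene clusters had 9 of 10 listed, with 1 of 90 named neuron pairs higher (1.11%, against 10.9% over all genes) and 19 lower (21.1%, against 6.72%). Smchd1 was higher in Unknown.1 (1.18) and Unknown.3 (0.95) in the authors' deposited table. Fold change and detection could differ here too. In LTMR, Smchd1, Nipbl and Stag1 of this list were lower but in 94.2%, 98.1% and 96.4% of cells, against 48.7%, 52.1% and 51.9% of other cells. In Peptidergic.488p these genes were lower and in fewer cells.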

How the data were processed

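Cells of mouse dorsal root ganglia, sorted by surface labelling into 2 populations, were profiled by droplet sequencing with 3' end counting, and 1 deposited table of cluster markers was analysed. Seurat is named in the submitters' processing notes. Which aligner, genome build, cell filters, normalization and clustering were used, and how doublets were treated, was not given in the sources used here, and the labels' extraction protocol names a nuclei isolation procedure. For each gene and cluster, per the file headers, the authors deposited p-values before and after adjustment, log2 fold changes averaged over cells, and 2 fractions of cells with the transcript, in the cluster and outside it. In the file, p stays under 0.01, the absolute log2 fold change starts at 0.25, and the larger fraction is at least 10%. Adjustment multiplied p by 32285 wherever this could be checked, in 50167 pairs within a relative tolerance of 1e-06.

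Fractions were printed as percentages. Calls used the adjusted p under 0.05 and the sign of the log2 fold change. Background shares took all 9229 genes of the table in each cluster. Cluster sizes were solved by least squares over 6748 genes whose fractions differed by at least 5 percentage points (residual 0.0274 points, sum 100.01%), since a gene's share over all cells is the same from every cluster, and they gave the share of all cells with a gene. The solver was tested on simulated data. Work used Python 3.11.15 with pandas 2.3.3 and NumPy 2.4.6. Named were all members, and up to 3 genes per partner list with the largest absolute fold change past the filter. The members and lists were chosen with earlier results of these data known. Clusters had been defined on the same cells, so a cluster against the rest is no test, and no depth or number of cells was available for intervals. Promoter windows came from RefSeq on GRCm38.p6, 15 of 24 members having one. Alternatives were an adjusted p under 0.01, no filter, fold change or detection minimums and agreement of detection.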

Additional observations from a re-analysis of the deposited data

How the results depend on the processing

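The counts of pairs of member and cluster were within 1.5 times their value at an adjusted p under 0.01 and without the filter. With a minimum log2 fold change of 0.5, higher pairs fell to 24 in named neuron and 0 in Low.UMI clusters, and lower pairs to 32 in Unknown clusters. With a minimum of 1, higher pairs were 9 in named neuron, 0 in Low.UMI and 14 in Unknown clusters, and lower pairs 9, 4 and 6. Fewer pairs can pass these limits by construction. When at least 25% of cells on either side had to carry the transcript, lower pairs fell to 19, 10 and 30, and when detection had to move with the fold change, the only higher Low.UMI pair was lost, leaving 0. Cluster sizes changed by at most 0.00133 percentage points with other limits on the genes used. No paired analysis was possible because the table holds no columns for samples. Leaving out a replicate was likewise not run. Without cell numbers or depth, no share of cells carries an interval. Among counts for single clusters, 30 of 40 moved by over 1.5 times with that minimum of 1.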
